A study of Mus musculus with 4 samples.

Results

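The interferon response genes are a set of 34 genes that cells switch on when they sense interferons, and their transcripts were compared between ILC2s of 2 mouse tissues. The members were listed by symbol, and 33 of the 34 symbols had a row among the 22083 genes of the deposited table. Mx2 was not analysed here. ILC2s, the group 2 innate lymphoid cells, are lymphocytes that settle in tissues, lack rearranged antigen receptors and make type 2 cytokines. RNA was sequenced from ILC2s sorted out of small intestinal lamina propria (SI-ILC2s, 2 libraries) and out of the mesenteric white fat (WAT-ILC2s, 2 libraries). All mice were wild-type (WT) C57BL/6 animals aged 9 weeks, and the labels name no treatment or infection, no sort markers and no pooling of animals. Whether both libraries of a tissue stem from different mice is not stated, so a p-value here sets the tissues against the spread of these libraries alone, and that spread may be technical.

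Interferons are secreted proteins that warn cells of viruses and other intracellular microbes. Type I interferons bind the receptor of IFNAR1 and IFNAR2, and the kinases JAK1 and TYK2 then activate STAT2, which joins IRF9 in a complex that binds a DNA element called ISRE. Interferon-gamma, the type II interferon, acts through IFNGR1 and IFNGR2, JAK1 and JAK2, and drives genes through an element called GAS. The genes so induced encode sensors of viral RNA and DNA, proteins that block viral replication, GTPases that attack the vacuoles of intracellular microbes, and feedback regulators. In ILC2s, both types of interferon are known as brakes on proliferation and type 2 cytokine output.

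The values are RPKM, reads scaled to gene length and library size by the authors. Levels can be compared between genes only as far as the gene lengths hold, and the annotation the authors used is not given. Each library held an estimated 55600000 to 76100000 reads, from the steps between low values of single-exon genes, so 1 RPKM corresponds to 55.6 to 76.1 reads per kilobase of transcript. Read numbers below are estimates from this depth and from the exon length of each gene in GENCODE M21 (GRCm38). Of the implied low counts 67.1% to 74.0% are even, and the labels do not say whether mates were counted singly, so read numbers may exceed those of fragments. All 12 ILC2 markers reached 1 RPKM in at least 1 library, and their sums were 1287 and 1284 RPKM in SI-ILC2s against 1017 and 987 RPKM in WAT-ILC2s. Single markers went both ways, and Gata3 overlapped. Rora, Id2, Il17rb (164 and 141 against 14.3 and 10.3 RPKM), Icos, Il5 and Il13 were higher in both SI-ILC2 libraries. Il7r, Ptprc, Thy1, Klrg1 and Il1rl1 (14.3 and 15.4 against 65.7 and 63.4 RPKM) were higher in both WAT-ILC2 libraries. Markers of plasmacytoid dendritic cells, the strongest producers of type I interferon, reached 1 RPKM for 1 of 7 genes (Tcf4), and their sums were 1.91 and 2.54 RPKM in SI-ILC2s against 2.44 and 2.53 in WAT-ILC2s. Siglech, the most specific of them, was at 0.0133 to 0.0796 RPKM. Of 15 markers of macrophages, monocytes and dendritic cells 5 reached 1 RPKM, with sums of 11.6 and 9.53 RPKM in SI-ILC2s against 20.8 and 21.9 in WAT-ILC2s. Of these 5, Lyz2, Zbtb46 and Xcr1 were higher in both WAT-ILC2 libraries, and Cd68 and Cd14 overlapped. Of 7 B and plasma cell markers 2 reached 1 RPKM (Cd79b and Igj), with sums of 24.9 and 19.0 RPKM in SI-ILC2s against 3.15 and 2.73 in WAT-ILC2s. Of 7 T cell markers 2 reached it (Cd3e and Cd3g), with sums of 8.58 and 6.82 against 23.2 and 12.4 RPKM. Most of each sum was Cd3g, at 7.07 and 4.94 against 21.2 and 10.8 RPKM. Cd3d, Cd4, Cd8a, Cd8b1 and Cd5 did not exceed 0.2112 RPKM in any library. Of 6 fibroblast markers 3 reached 1 RPKM, with sums of 0.462 and 0.532 against 9.88 and 4.48 RPKM. All 5 red cell markers reached it, with sums of 41.5 and 13.2 RPKM in SI-ILC2s against 140.0 and 88.9 in WAT-ILC2s. Of 8 epithelial markers 3 reached 1 RPKM, with sums of 5.76 and 13.3 RPKM in SI-ILC2s against 9.26 and 8.56 in WAT-ILC2s. Krt8 and Krt18 were at 4.32 and 2.01 RPKM in SI-ILC2 replicate 2 and did not exceed 0.369 in the other libraries. Of 6 adipocyte markers only Fabp4 reached 1 RPKM, at 0.257 and 0.172 in SI-ILC2s against 4.32 and 3.43 in WAT-ILC2s. Sums of endothelial, mesothelial, and granulocyte and mast cell markers did not exceed 7.37 RPKM in any library. No marker of these lists was at 0 in all 4 libraries. The part of other cells in the results below was not tested, and effects of how the cells were taken out of fat or gut cannot be told apart from those of the tissue.

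The neighbouring members Gbp3 and Gbp7 were called in opposite directions between the tissues, and other related members had different patterns, so the ISRE letters of their promoters are shown first. RefSeq windows (GRCm38.p6, from 250 bases before to 50 after a gene's start) were found for 25 members, and not for Dhx58, Mx1, Mx2, Oas2, Parp9, Parp14, Rtp4, Usp18 and Zbp1. The ISRE core was searched on both strands as 2 runs of GAAA with any 2 bases between them, which read as 2 runs of TTTC on the other strand. It was in the window of 15 of these 25 genes (60%), against 3.99% of the 27025 genes in the table of windows. The GAS core TTCNNNGAA, which reads the same on both strands, was in 8 of 25 (32%), against 9.55% of all genes. Letters of the ISRE and GAS cores overlapped in the window of 1 member, Bst2. The stretches below run 5′ to 3′ along each gene's own strand and end at or before its start, and capitals mark the ISRE letters. They are shown for Gbp7, Gbp3 and Gbp2 as neighbours with different patterns, for Ifit1 and Ifit3 as neighbours with different levels, for Oas1a and Oas3 as relatives whose libraries separated in opposite orders, and for Igtp and Irgm1 as relatives of which Igtp alone passed the test.
Gbp7 (chr3:142530243-142530332, + strand): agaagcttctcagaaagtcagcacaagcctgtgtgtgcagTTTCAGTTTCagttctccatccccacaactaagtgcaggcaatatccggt
Gbp3 (chr3:142559959-142560043, + strand): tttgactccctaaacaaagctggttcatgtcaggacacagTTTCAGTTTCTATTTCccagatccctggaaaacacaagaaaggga
Gbp2 (chr3:142620564-142620653, + strand): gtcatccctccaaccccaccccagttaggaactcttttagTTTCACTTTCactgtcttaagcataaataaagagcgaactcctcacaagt
Ifit1 (chr19:34640745-34640853, + strand): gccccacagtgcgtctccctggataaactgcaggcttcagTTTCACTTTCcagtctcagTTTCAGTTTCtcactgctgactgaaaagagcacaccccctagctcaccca
Ifit3 (chr19:34583333-34583456, + strand): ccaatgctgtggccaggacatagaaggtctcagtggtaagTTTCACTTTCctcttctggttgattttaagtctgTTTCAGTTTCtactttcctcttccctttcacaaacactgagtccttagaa
Oas1a (chr5:120907526-120907585, - strand): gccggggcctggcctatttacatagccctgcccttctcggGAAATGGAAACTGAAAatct
Oas3 (chr5:120777685-120777774, - strand): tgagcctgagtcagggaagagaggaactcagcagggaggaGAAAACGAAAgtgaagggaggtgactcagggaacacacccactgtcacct
Igtp (chr11:58199482-58199555, + strand): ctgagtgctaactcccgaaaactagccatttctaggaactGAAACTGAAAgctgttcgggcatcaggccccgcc
Irgm1 (chr11:48871421-48871490, - strand): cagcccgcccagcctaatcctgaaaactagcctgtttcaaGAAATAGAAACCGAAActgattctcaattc
Of the members later called higher in SI-ILC2s, 5 of 6 held the ISRE letters in their window, and the exception was Irf9. Of those called higher in WAT-ILC2s, 2 of the 4 with a window held them (Gbp7 and Trim30a), and Irf7 and Samhd1 did not. Among the 8 tested members without a call, 5 of the 7 with a window held them. The GAS letters were in the windows of 2 of 6, 2 of 4 and 3 of 7 members of these groups in turn. Of the genes printed above, Gbp7 (at 2 places), Igtp and Oas1a held GAS letters in their windows, which are not marked, and the others did not. A match is a run of letters and not a measured binding site.

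The members split between the tissues: 6 were called higher in SI-ILC2s, led by Ifit1, Gbp3 and Igtp, and 6 in WAT-ILC2s, led by Samhd1, Usp18 and Trim30a. These calls are among the 20 members, of 33 in the table, that reached 1 RPKM in at least 2 libraries and were tested (limma on log2(RPKM + 1), Benjamini-Hochberg adjusted p below 0.05 over 8230 genes). Among all tested genes, 17.9% were called toward SI-ILC2s, 29.6% toward WAT-ILC2s and 47.5% in either direction, against 30% each way for the members. In such bulk libraries, fewer cells that express a gene and less of its RNA per cell cannot be told apart. Ifit1, Oas1a and Rsad2 passed the minimum only through the SI-ILC2 libraries, and Usp18 and Parp14 only through the WAT-ILC2 libraries, so the member shares are not evidence of more change than in other genes. Among the 14 members at 1 RPKM or more in all 4 libraries, 3 and 4 were called when only such genes were tested. Without SI-ILC2 replicate 2, 6 members were called toward SI-ILC2s and 3 toward WAT-ILC2s. The median change of the 20 members was -0.24 on the log2 scale, and that of all tested genes was -0.15. After median-of-ratios scaling these medians were -0.08 and 0, the calls among members were 6 and 4, and SI-ILC2s held 51.8% of the calls over all genes, against 37.6% with the values as deposited. Each change is the SI-ILC2 mean less the WAT-ILC2 mean of log2(RPKM + 1), a scale on which the change of low genes comes out too small.

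**Figure D1:**
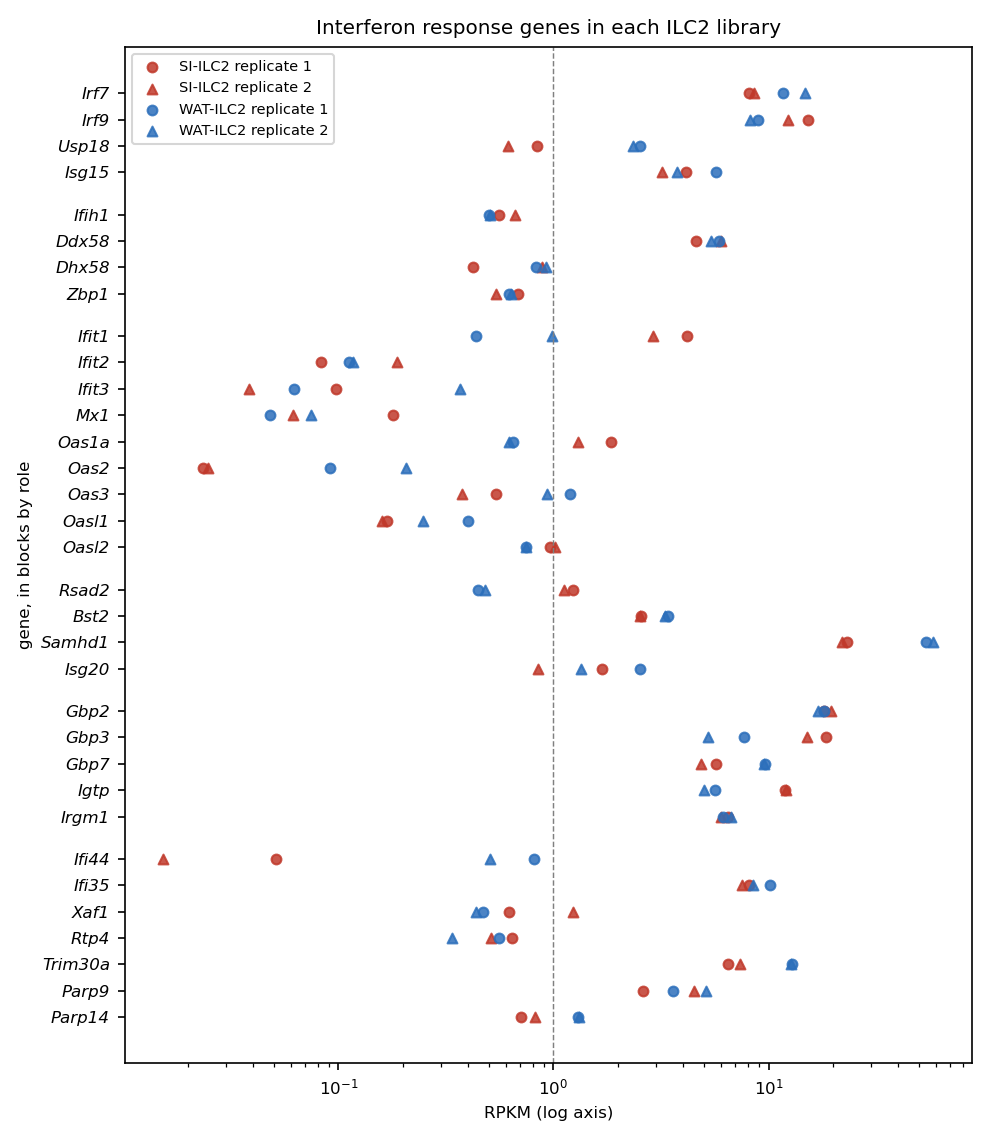
RPKM (log axis) of the 33 interferon response genes in the table, in blocks by role, with 1 point per library (red SI-ILC2s, blue WAT-ILC2s, circles replicate 1, triangles replicate 2) and a dashed line at 1 RPKM. Samhd1 is the highest member in the WAT-ILC2 libraries, and 10 members lie below 1 RPKM in every library. Both SI-ILC2 values are the higher for 9 genes, both WAT-ILC2 values for 12, and 12 overlap.

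Levels of the members spanned a wide range. Samhd1, which encodes an enzyme that depletes the nucleotides viruses need for DNA synthesis, was the highest in the WAT-ILC2 libraries at 53.9 and 58.5 RPKM. Gbp2 followed at 17.1 to 19.5 RPKM over the 4 libraries, and 8 members reached 10 RPKM in any library. At the other end, 10 members stayed below 1 RPKM in every library and 5 below 0.5 RPKM, namely Ifit2, Ifit3, Mx1, Oas2 and Oasl1. Ifit2, Ifit3, Mx1 and Oas2 are strongly induced by type I interferon in most cells, and C57BL/6 mice carry a defective Mx1 allele.

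Among the regulators, the transcription factor genes Irf9 and Irf7 differed in opposite directions. Irf9, the DNA-binding partner of STAT2, had 15.3 and 12.3 RPKM in SI-ILC2s against 8.88 and 8.23 in WAT-ILC2s. The groups did not overlap, and the means were 13.8 ± 2.15 and 8.56 ± 0.461 RPKM (SD, n = 2 libraries each), a log2 change of 0.62 ± 0.16 (SE, limma, adjusted p = 0.02). This call was lost without SI-ILC2 replicate 1 (adjusted p = 0.15). Exons of Irf9 share 2.28% of their length with Rnf31 on the same strand.

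Irf7, which amplifies the production of type I interferons, had 8.15 and 8.57 RPKM in SI-ILC2s against 11.7 and 14.8 in WAT-ILC2s. Both WAT-ILC2 libraries were above both SI-ILC2 libraries, with a log2 change of -0.60 ± 0.16 (SE, limma, adjusted p = 0.023). The call was lost after median-of-ratios scaling (adjusted p = 0.06) and without SI-ILC2 replicate 1, SI-ILC2 replicate 2 or WAT-ILC2 replicate 2 (adjusted p up to 0.12). The ratio of Irf9 to Irf7 within a library, which does not depend on scaling between libraries, was 1.88 and 1.43 in SI-ILC2s against 0.758 and 0.555 in WAT-ILC2s.

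Usp18 and Isg15 encode the protease that removes the ubiquitin-like protein ISG15 from its targets, and ISG15 itself. USP18 also blocks signalling at the type I interferon receptor. Usp18 had 0.839 and 0.615 RPKM in SI-ILC2s against 2.53 and 2.36 in WAT-ILC2s, or about 178 and 103 against 393 and 432 reads. The WAT-ILC2 mean was 3.36 times the SI-ILC2 mean, and the log2 change was -1.0 ± 0.13 (SE, limma, adjusted p = 0.0022). Isg15 had 4.13 and 3.19 RPKM in SI-ILC2s against 5.71 and 3.74 in WAT-ILC2s. These ranges overlapped, and its log2 change of -0.28 ± 0.21 (SE) did not pass the test (limma, adjusted p = 0.31). The change was -0.53 without WAT-ILC2 replicate 2 and -0.03 without WAT-ILC2 replicate 1.

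**Figure D2:**
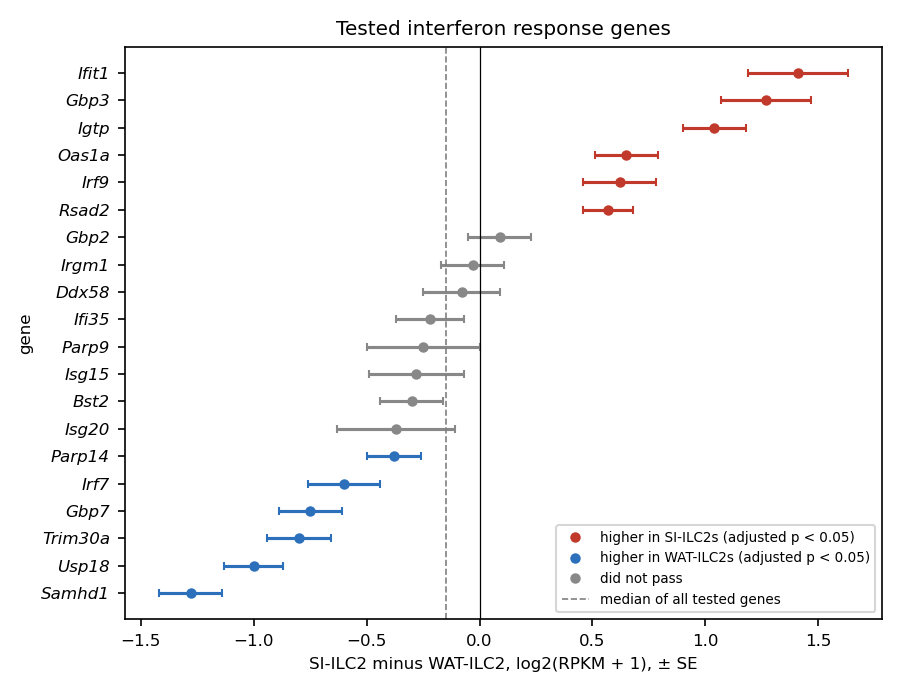
Change of the 20 tested interferon response genes, in log2(RPKM + 1), SI-ILC2 minus WAT-ILC2, with the SE from limma as bars, coloured by call, and a dashed line at the median of all tested genes (-0.15). Ifit1 at 1.41 and Samhd1 at -1.28 stand at the ends, with 6 genes called in each direction.

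None of the 4 sensor genes was called. Ddx58, the gene of the RNA sensor RIG-I, was the only one that reached the minimum, with 4.58 and 6.04 RPKM in SI-ILC2s against 5.88 and 5.40 in WAT-ILC2s (log2 change -0.08 ± 0.17 SE, limma, adjusted p = 0.7). Ifih1, which encodes the RNA sensor MDA5, stayed between 0.501 and 0.661 RPKM. Dhx58, whose product LGP2 modulates the other RNA sensors, was at 0.423 to 0.926 RPKM, and Zbp1, a sensor of Z-form nucleic acids, at 0.542 to 0.683. The SI-ILC2 libraries were both above the WAT-ILC2 libraries for Ifih1, and the groups overlapped for Ddx58, Dhx58 and Zbp1.

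Of the IFIT genes, whose products bind foreign RNA and block its translation, Ifit1 was detected at a higher level than its neighbours. It had 4.19 and 2.90 RPKM in SI-ILC2s against 0.434 and 0.986 in WAT-ILC2s, so the lowest SI-ILC2 value lay above the highest WAT-ILC2 value. The SI-ILC2 mean was 4.99 times the WAT-ILC2 mean, and the log2 change of 1.41 ± 0.22 (SE, limma, adjusted p = 0.0033) was the largest of the set toward SI-ILC2s. The call was kept with any 1 of the 4 libraries left out. Ifit2 was at 0.083 and 0.187 RPKM in SI-ILC2s against 0.112 and 0.117 in WAT-ILC2s. Ifit3 was at 0.0979 and 0.0384 against 0.0619 and 0.366 RPKM, or about 13 and 4 against 6 and 42 reads. Both groups overlapped for both genes, and 51.2% of the 50-base words of the Ifit3 transcript also occur in Ifit3b, so its reads may be divided between the copies.

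In the IFIT cluster on chromosome 19, Ifit2 (34550694 to 34576419), Ifit3 (34583531 to 34588731) and Ifit1 (34640871 to 34650009) lie on the same strand, with 7.11 kb between Ifit2 and Ifit3 and 52.1 kb between Ifit3 and Ifit1. The promoter stretches of both Ifit3 and Ifit1 printed above hold the ISRE letters at 2 places. In SI-ILC2s the RPKM of Ifit1 was 42.8 and 75.4 times that of Ifit3 in the same library, and in WAT-ILC2s 7.01 and 2.69 times.

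The OAS genes encode enzymes that make the second messenger of RNase L, which degrades RNA, and of these members Oas1a alone passed the test. Oas1a had 1.85 and 1.31 RPKM in SI-ILC2s against 0.650 and 0.622 in WAT-ILC2s, a log2 change of 0.65 ± 0.14 (SE, limma, adjusted p = 0.012). Its transcript shares 57.6% of its 50-base words with Oas1g, which had 0.577 and 0.344 RPKM in SI-ILC2s against 0.138 and 0.120 in WAT-ILC2s, so the assignment between these copies is uncertain. Oas3 had 0.543 and 0.376 RPKM in SI-ILC2s against 1.19 and 0.935 in WAT-ILC2s, and Oas2 0.0235 and 0.0248 against 0.0915 and 0.206. For these 2 genes the WAT-ILC2 libraries were the higher, but neither reached the minimum of the test, and neither was called without a filter (limma, adjusted p of 0.072 and 0.1). The ratio of Oas1a to Oas3 within a library was 3.41 and 3.48 in SI-ILC2s against 0.544 and 0.665 in WAT-ILC2s.

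The OAS-like genes Oasl1 and Oasl2, and Mx1, stayed near or below 1 RPKM. Oasl1 had 0.169 and 0.160 RPKM in SI-ILC2s against 0.400 and 0.247 in WAT-ILC2s. Its neighbour Oasl2 had 0.960 and 1.02 RPKM in SI-ILC2s against 0.747 and 0.748 in WAT-ILC2s, so the libraries separated in the opposite direction. Mx1, a dynamin-like antiviral GTPase gene, was at 0.048 to 0.180 RPKM with overlapping groups. None of the 3 was called without a filter (limma, adjusted p from 0.22 to 0.47).

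Of the other antiviral effectors, Samhd1 and Rsad2 were called, in opposite directions. Samhd1 had 23.2 and 21.9 RPKM in SI-ILC2s against 53.9 and 58.5 in WAT-ILC2s, or at least 11956 reads in each library. The means were 22.5 ± 0.922 and 56.2 ± 3.20 RPKM (SD, n = 2 libraries each), and the log2 change of -1.28 ± 0.14 (SE, limma, adjusted p = 0.0011) was the largest of the set toward WAT-ILC2s. Rsad2, the gene of viperin, which makes a chain-terminating nucleotide, had 1.23 and 1.12 RPKM in SI-ILC2s against 0.444 and 0.481 in WAT-ILC2s. Its replicates lay close together in each tissue, and its log2 change was 0.57 ± 0.11 (SE, limma, adjusted p = 0.0073).

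Bst2, the gene of tetherin, which holds budding virus at the cell surface, had 2.54 and 2.52 RPKM in SI-ILC2s against 3.39 and 3.30 in WAT-ILC2s. The groups did not overlap, but the log2 change of -0.30 ± 0.14 (SE) did not pass the test (limma, adjusted p = 0.11). Bst2 was just called after rescaling to equal sums (adjusted p = 0.05 after rounding). After median-of-ratios and quantile scaling it was not (adjusted p of 0.38 and 0.42). Isg20, which encodes an RNA exonuclease, ranged from 0.844 to 2.53 RPKM with overlapping groups and an adjusted p of 0.27 (limma). Its log2 change of -0.37 depended on single libraries. It was -0.67 without WAT-ILC2 replicate 2 and -0.08 without WAT-ILC2 replicate 1.

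The interferon-inducible GTPases held members with both directions of change and without a call, within 1 cluster. Gbp7 (142530342 to 142550149), Gbp3 (142560026 to 142573209) and Gbp2 (142620602 to 142638008) lie in this order on the plus strand of chromosome 3, with 9.88 kb and 47.4 kb between them. They encode guanylate-binding proteins, which assemble on intracellular bacteria and parasites. Gbp3 had 18.5 and 15.1 RPKM in SI-ILC2s against 7.68 and 5.24 in WAT-ILC2s, and both SI-ILC2 libraries were above both WAT-ILC2 libraries. Its means were 16.8 ± 2.38 and 6.46 ± 1.73 RPKM (SD, n = 2 libraries each), a log2 change of 1.27 ± 0.20 (SE, limma, adjusted p = 0.0038).

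Gbp7 had 5.69 and 4.86 RPKM in SI-ILC2s against 9.58 and 9.49 in WAT-ILC2s, which is the opposite order. Its log2 change was -0.75 ± 0.14 (SE, limma, adjusted p = 0.0072), and the call was just lost without SI-ILC2 replicate 2 (adjusted p = 0.053). Gbp2 had 18.03 and 19.5 RPKM in SI-ILC2s against 18.1 and 17.1 in WAT-ILC2s, with overlapping groups and a log2 change of 0.09 ± 0.14 (SE, limma, adjusted p = 0.62). The ratio of Gbp3 to Gbp7 within a library was 3.25 and 3.11 in SI-ILC2s against 0.802 and 0.552 in WAT-ILC2s. By RPKM, Gbp3 was the higher in each SI-ILC2 library and Gbp7 in each WAT-ILC2 library, which depends on the gene lengths used. Of the 50-base words of the Gbp3 transcript, 4.79% also occur in Gbp7, and 10.6% of those of Gbp7 occur in the pseudogene Gm43802.

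Igtp and Irgm1 encode immunity-related GTPases that act on vacuoles of intracellular microbes. Igtp had 11.9 and 12.01 RPKM in SI-ILC2s against 5.62 and 5.002 in WAT-ILC2s. The replicates of each tissue were close to each other, and the log2 change was 1.04 ± 0.14 (SE, limma, adjusted p = 0.0021). Exons of Igtp share 8.01% of their length with Irgm2 on the same strand, and Irgm2 was at 0.962 to 1.36 RPKM with overlapping groups. Irgm1 had 6.48 and 6.01 RPKM in SI-ILC2s against 6.12 and 6.72 in WAT-ILC2s, and its log2 change was -0.03 ± 0.14 (SE, limma, adjusted p = 0.86). The ratio of Igtp to Irgm1 was 1.83 and 2.00 in SI-ILC2s against 0.918 and 0.745 in WAT-ILC2s. Irgm1 has 5810 bases of exons but a longest coding transcript of 2259 bases, so the size of this ratio depends on the length used.

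**Figure D3:**
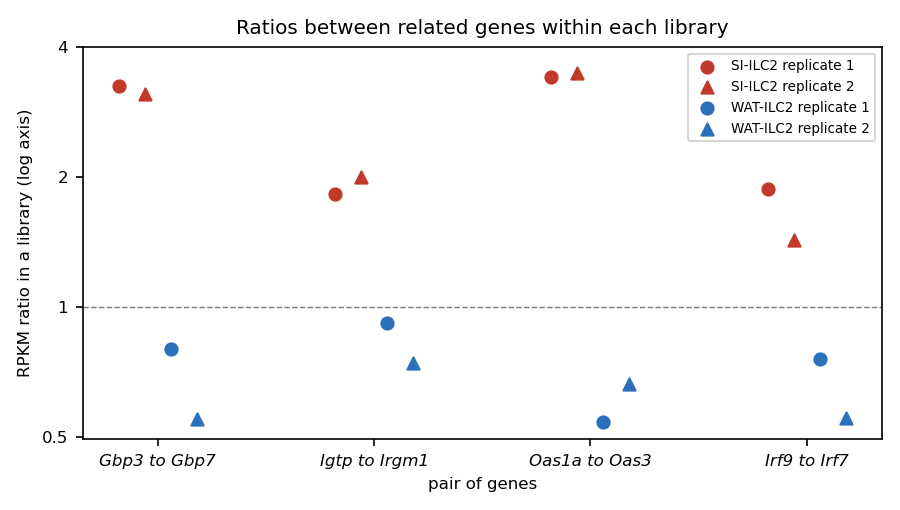
Ratio of the RPKM of related genes within each library (log axis, dashed line at 1) for 4 pairs, which were chosen after their values were seen and carry no test. In each pair both SI-ILC2 libraries (red) lie above 1 and both WAT-ILC2 libraries (blue) below 1, with Gbp3 to Gbp7 at 3.25 and 3.11 against 0.802 and 0.552. Where a ratio lies relative to 1 depends on the gene lengths used, while the order of the libraries within a pair does not.

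Among the remaining members, Trim30a and Parp14 were called, both toward WAT-ILC2s. Trim30a, a ubiquitin ligase gene that dampens inflammatory signalling, had 6.48 and 7.34 RPKM in SI-ILC2s against 12.8 and 12.7 in WAT-ILC2s. Its log2 change was -0.80 ± 0.14 (SE, limma, adjusted p = 0.0051), and 6.53% of its 50-base words are shared with Trim30d. Parp14, an ADP-ribosyltransferase gene, had 0.706 and 0.825 RPKM in SI-ILC2s against 1.30 and 1.31 in WAT-ILC2s, a log2 change of -0.38 ± 0.12 (SE, limma, adjusted p = 0.035). The Parp14 call was lost without any 1 of the 4 libraries (adjusted p up to 0.16) and after median-of-ratios or quantile scaling (adjusted p up to 0.2).

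Ifi44, an interferon-induced gene that limits viral replication, had the widest gap of the members below the minimum. It was at 0.0513 and 0.0153 RPKM in SI-ILC2s, about 24 and 6 reads, and at 0.810 and 0.504 RPKM in WAT-ILC2s, about 276 and 203 reads. The WAT-ILC2 mean was 19.7 times the SI-ILC2 mean, and without a filter on low values Ifi44 was called higher in WAT-ILC2s (limma, adjusted p = 0.0092). Ifi35, whose product partners with the interferon-induced protein NMI, had 8.13 and 7.55 RPKM in SI-ILC2s against 10.2 and 8.51 in WAT-ILC2s (limma, adjusted p = 0.25). Parp9, which binds the ubiquitin ligase DTX3L, ranged from 2.59 to 5.11 RPKM with overlapping groups (limma, adjusted p = 0.43). Xaf1, a pro-apoptotic gene, had 0.623 and 1.23 RPKM in SI-ILC2s against 0.473 and 0.436 in WAT-ILC2s, and Rtp4, a receptor transporter gene, was at 0.339 to 0.644 RPKM with overlapping groups.

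Over all 33 members, 9 had both SI-ILC2 libraries above both WAT-ILC2 libraries, 12 had the reverse order and 12 overlapped. Among 21851 genes above 0 in any library, these orders held for 23.3% and 31.2%. Among the 20 tested members the orders held for 6 and 8, against 29.8% and 45.9% of all tested genes. With 2 libraries against 2, an exact two-sided permutation test of a single gene cannot go below p = 0.333.

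**Figure D4:**
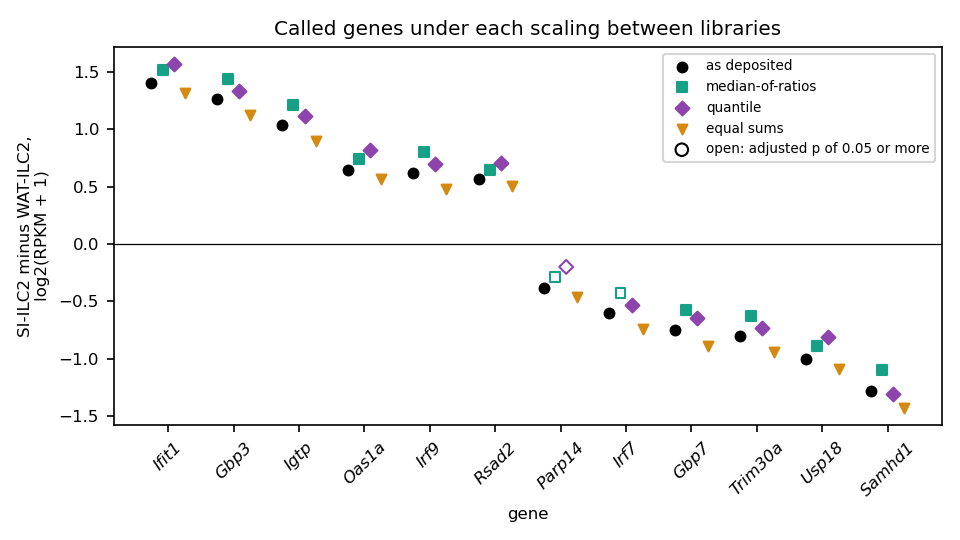
Change of the 12 called interferon response genes with the values as deposited and after 3 scalings between libraries, on the log2(RPKM + 1) scale, where open symbols have an adjusted p of 0.05 or more. No gene changes sign, 10 of the 12 stay called under all 3 scalings, and the exceptions are Irf7 and Parp14.

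Genes that act ahead of the members were described from a list of 46 genes for ligands, receptors, kinases, transcription factors, sensors, adaptors and inhibitors. Interferon genes themselves were at or near 0. The 9 ligand genes of the list (Ifng, Ifnb1, Ifna1, Ifna2, Ifna4, Ifnk, Ifne, Ifnl2 and Ifnl3) did not exceed 0.250 RPKM in any library. Ifng had 0.174 and 0.250 RPKM in SI-ILC2s, about 17 and 19 reads, and 0.0298 and 0 RPKM in WAT-ILC2s, about 2 and 0 reads. Without a filter on low values it was called higher in SI-ILC2s (limma, adjusted p = 0.019). Of the exon length of Ifng, 25.9% is shared with Gm49751 on the same strand, so the assignment of these few reads is uncertain. Markers of NK cells and ILC1s, which are known sources of interferon-gamma, summed to 1.54 and 1.56 RPKM in SI-ILC2s against 0.575 and 0.791 in WAT-ILC2s. ILC3 markers summed to 2.71 and 4.52 against 0.311 and 0.435. Most of the SI-ILC2 sums was Prf1 (0.928 and 1.003 against 0.272 and 0.445 RPKM) and Il22 (1.76 and 3.50 against 0.0649 and 0.0137). Tbx21 and Il23r overlapped, and the other genes of both lists were higher in both SI-ILC2 libraries. The part of NK cells, ILC1s and ILC3s in the Ifng values was not tested. For the type I ligands Ifnb1, Ifna1, Ifna2 and Ifna4 the values rest on at most 4 reads in a library.

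Among the 33 tested pathway genes, 15 (45.5%) were called toward WAT-ILC2s and 5 (15.2%) toward SI-ILC2s, against 29.6% and 17.9% of all tested genes. These counts were 10 and 7 after median-of-ratios scaling, and the genes called toward WAT-ILC2s numbered 8 without SI-ILC2 replicate 1 and 9 without SI-ILC2 replicate 2. Without SI-ILC2 replicate 2, 2 genes were called toward SI-ILC2s. Mavs and Ticam1 passed the minimum only through the tissue in which they were higher, and without a filter 9 genes were called toward WAT-ILC2s and 4 toward SI-ILC2s, so the shares are a description. The median change of the list was -0.36 on the log2 scale, against -0.15 over all tested genes.

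The receptor genes of type I interferon were both higher in WAT-ILC2s. Ifnar1 had 15.9 and 16.4 RPKM in SI-ILC2s against 33.0 and 31.7 in WAT-ILC2s, a log2 change of -0.96 ± 0.13 (SE, limma, adjusted p = 0.0024). Ifnar2 had 4.83 and 5.12 RPKM in SI-ILC2s against 11.2 and 11.4 in WAT-ILC2s, a log2 change of -1.04 ± 0.13 (SE, limma, adjusted p = 0.0019). Replicates differed little beside the gap between tissues for both, and both calls held in all 15 alternatives. Il10rb, a receptor subunit shared by type III interferons and interleukin-10, had 5.17 and 4.85 RPKM in SI-ILC2s against 11.5 and 13.8 in WAT-ILC2s (limma, adjusted p = 0.0019). Ifnar2 and Il10rb each share exons with the readthrough gene Gm21970 on the same strand, 9.46% and 14.9% of their exon length. Ifnlr1, the specific subunit for type III interferons, was at 0.0361 to 0.0728 RPKM.

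For interferon-gamma, Ifngr1 was abundant in both tissues, with 104.7 and 131 RPKM in SI-ILC2s against 119.6 and 146 in WAT-ILC2s and overlapping groups (limma, adjusted p = 0.48). Ifngr2, the signalling subunit, had 14.3 and 12.6 RPKM in SI-ILC2s against 22.6 and 19.0 in WAT-ILC2s (log2 change -0.59 ± 0.15 SE, limma, adjusted p = 0.022). The Ifngr2 call was lost after median-of-ratios scaling (adjusted p = 0.083) and without SI-ILC2 replicate 1, SI-ILC2 replicate 2 or WAT-ILC2 replicate 1 (adjusted p up to 0.13).

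Downstream of the receptors, Stat2 had 1.59 and 1.90 RPKM in SI-ILC2s against 2.47 and 2.57 in WAT-ILC2s, without overlap. Its adjusted p of 0.071 (limma) did not pass the test. It was 0.04 after rescaling to equal sums, but 0.2 and 0.24 after median-of-ratios and quantile scaling. The kinase genes Jak1 and Tyk2 were called toward WAT-ILC2s, without overlap. Their log2 changes were -0.58 ± 0.16 and -0.52 ± 0.17 (SE, limma, adjusted p of 0.024 and 0.041). Both calls were lost without a filter, after median-of-ratios scaling (adjusted p up to 0.096) and without SI-ILC2 replicate 1 or replicate 2. Jak1 also lost the call without WAT-ILC2 replicate 2, and Tyk2 without WAT-ILC2 replicate 1 and after quantile scaling. Jak2, a kinase of the interferon-gamma receptor and of other cytokine receptors, had 56.9 and 76.1 RPKM in SI-ILC2s against 33.8 and 42.9 in WAT-ILC2s (limma, adjusted p = 0.021). The Jak2 call was lost after rescaling to equal sums (adjusted p = 0.056) and without SI-ILC2 replicate 2 (adjusted p = 0.13).

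Among the sensors, adaptors and factors called toward WAT-ILC2s, Tmem173 had the largest change. Tmem173, the gene of the adaptor STING, had 4.61 and 4.08 RPKM in SI-ILC2s against 15.9 and 17.03 in WAT-ILC2s, a log2 change of -1.71 ± 0.14 (SE, limma, adjusted p = 5.2e-04). Mb21d1, the gene of the DNA sensor cGAS, had 0.828 and 1.08 RPKM in SI-ILC2s against 2.71 and 2.86 in WAT-ILC2s (log2 change -0.96 ± 0.14 SE, limma, adjusted p = 0.0027). The adaptor gene Myd88 had 7.12 and 7.30 against 15.7 and 14.6 RPKM, the transcription factor gene Irf5 5.86 and 6.85 against 11.8 and 13.6, and the kinase gene Ikbke 4.06 and 4.38 against 7.23 and 8.58. All were called higher in WAT-ILC2s (limma, adjusted p from 0.0024 to 0.0077), and 11.3% and 14.1% of the exon length of Myd88 and Irf5 overlaps genes on the opposite strand.

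Toward SI-ILC2s, Tbk1, which encodes the kinase that activates IRF3, had 15.4 and 13.1 RPKM in SI-ILC2s against 7.73 and 7.70 in WAT-ILC2s (log2 change 0.80 ± 0.14 SE, limma, adjusted p = 0.0058). The ubiquitin ligase gene Traf6, the transcription factor gene Irf8 and the adaptor gene Ticam1 were also called toward SI-ILC2s. Traf6 had 3.77 and 4.55 against 2.24 and 1.89 RPKM, and its adjusted p of 0.0096 (limma) rose to 0.052 without SI-ILC2 replicate 2. Irf8 had 2.30 and 2.84 against 1.09 and 1.61 RPKM, and Ticam1 1.49 and 1.30 against 0.831 and 0.697 (limma, adjusted p of 0.027 and 0.026). Ticam1 passed the minimum only through the SI-ILC2 libraries, and without a filter its adjusted p was 0.094. The Irf8 call was lost without a filter and after rescaling to equal sums (adjusted p of 0.059 in each). Irf8 and Ticam1 each lost the call without 2 of the libraries left out in turn (SI-ILC2 replicate 2 and WAT-ILC2 replicate 1 for Irf8, SI-ILC2 replicate 1 and WAT-ILC2 replicate 2 for Ticam1).

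Other interferon regulatory factors differed less firmly. Irf1, an early target of interferon-gamma, had 66.5 and 57.5 RPKM in SI-ILC2s against 86.6 and 83.1 in WAT-ILC2s. The adjusted p of Irf1 was 0.049 (limma), and it passed 0.05 without any 1 of the 4 libraries (up to 0.34) and after median-of-ratios scaling (0.24). Irf2, an antagonist of IRF1, had 2.24 and 3.62 against 4.74 and 7.72 RPKM (limma, adjusted p = 0.034, and 0.14 without SI-ILC2 replicate 1). Irf3, which drives interferon genes after sensing, had 12.5 and 11.8 against 14.7 and 12.8 RPKM (limma, adjusted p = 0.38).

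**Figure D5:**
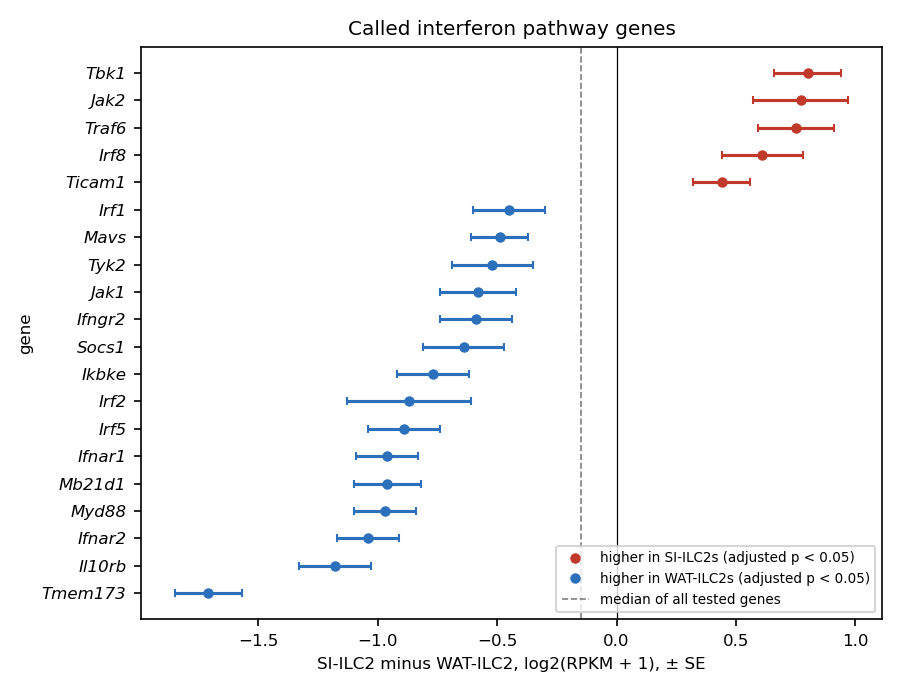
Change of the 20 called pathway genes, in log2(RPKM + 1), SI-ILC2 minus WAT-ILC2, with the SE from limma as bars, coloured by call, and a dashed line at the median of all tested genes (-0.15). Tbk1 at 0.80 and Tmem173 at -1.71 stand at the ends, and Ifnar1 and Ifnar2 lie at -0.96 and -1.04.

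A further list held 64 interferon-induced genes that are not members, of which 46 were tested. Of these, 18 (39.1%) were called toward WAT-ILC2s and 6 (13%) toward SI-ILC2s, against 29.6% and 17.9% of all tested genes, and the median change was -0.27 on the log2 scale, against -0.15 over all tested genes. After median-of-ratios scaling the counts were 13 and 7, with a median of -0.12 against 0. Ifitm3, Cmpk2 and Dtx3l passed the minimum only through the tissue in which they were higher, so these shares too are a description. Without SI-ILC2 replicate 1 or replicate 2, 11 were higher in WAT-ILC2s. Slfn8, a Schlafen family gene, had 1.03 and 1.37 RPKM in SI-ILC2s against 7.65 and 7.41 in WAT-ILC2s, a log2 change of -1.96 ± 0.15 (SE, limma, adjusted p = 4.2e-04). Its relative Slfn2 had 10.01 and 8.85 against 18.8 and 21.1 RPKM (limma, adjusted p = 0.0027).

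Iigp1, an immunity-related GTPase gene like Igtp, differed in the opposite direction to Igtp. It had 1.03 and 0.504 RPKM in SI-ILC2s against 5.22 and 6.09 in WAT-ILC2s, a log2 change of -1.92 ± 0.19 (SE, limma, adjusted p = 7.7e-04). Sp100, a nuclear body gene, had 7.80 and 8.69 against 21.98 and 22.9 RPKM, and Apobec3, a cytidine deaminase gene that restricts retroviruses, 5.72 and 6.36 against 15.3 and 14.7 (limma, adjusted p of 9.2e-04 and 0.0013). Ifitm3 and Ifitm2 encode membrane proteins that block virus entry, and they differed in opposite directions. Ifitm3 had 0.465 and 0.938 RPKM in SI-ILC2s against 3.87 and 2.29 in WAT-ILC2s, while Ifitm2 had 5.53 and 6.19 in SI-ILC2s against 2.61 and 2.98 in WAT-ILC2s (limma, adjusted p of 0.0064 and 0.005). Of the exon length of Ifitm2, 40.9% is shared with Gm45717 on the same strand, so the assignment of its reads is uncertain.

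The other genes called toward SI-ILC2s were Gbp6, Gbp9, Dtx3l, Mlkl and Adar. Gbp6, a guanylate-binding protein gene of a separate cluster on chromosome 5, had 6.71 and 6.85 RPKM in SI-ILC2s against 3.18 and 3.22 in WAT-ILC2s (log2 change 0.89 ± 0.14 SE, limma, adjusted p = 0.0034), and 29.0% of its exon length is shared with Gm43302. Gbp9 had 8.85 and 7.77 against 5.95 and 5.38 RPKM, and its adjusted p of 0.035 (limma) rose to as much as 0.22 without SI-ILC2 replicate 1, SI-ILC2 replicate 2 or WAT-ILC2 replicate 2, to 0.088 after rescaling to equal sums and to 0.069 without a filter. Mlkl, the effector of necroptosis, had 3.23 and 4.06 against 2.07 and 1.82 RPKM, and Adar, an RNA-editing enzyme gene, 2.16 and 1.89 against 1.08 and 1.04 (limma, adjusted p of 0.016 and 0.014). Each of these calls was lost without 1 library, Mlkl without SI-ILC2 replicate 2 (adjusted p = 0.087) and Adar without SI-ILC2 replicate 1 (adjusted p = 0.067). Dtx3l had 1.41 and 2.45 against 0.924 and 0.693 RPKM (limma, adjusted p = 0.03, 0.095 without SI-ILC2 replicate 2 and 0.071 without a filter), and 8% of its exon length overlaps Parp9 on the opposite strand.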

How the data were processed

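The authors deposited a table of RPKM values (reads scaled to gene length and library size), 1 column per library. The submitters' processing notes name the build GRCm38 (mm10), STAR 2.6.0 and featureCounts 1.6.0. The annotation, strand setting and multi-mapping rule were not given in the sources used here. Reads of overlapping genes and of near-identical copies may therefore be misassigned. RPKM is scaled to length and library size only, and column sums ranged from 136705 to 158718 RPKM. Depth was estimated as the number of reads, between 30000000 and 100000000, at which values of single-exon genes fell within 0.1 of whole reads most often (81.8% to 84.0% of values), and it is fixed only up to a whole factor. Estimated reads carry counting error only.

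Groups and replicate numbers came from the sample titles. Genes with at least 1 RPKM in at least 2 libraries (8230) entered limma 3.58.1 (R 4.3.3) as log2(RPKM + 1) (variance trend, all 4 libraries, no covariate, two-sided). P-values were adjusted by Benjamini-Hochberg across these genes, and calls needed an adjusted p below 0.05. The steps were tested on simulated data. Alternatives changed the pseudocount, the filter, the scaling, the variance model, a replicate block and the libraries left out. Locations, exon overlaps and shared 50-base words came from GENCODE M21, and promoter windows from RefSeq (GRCm38.p6). Python 3.11.15 with pandas 2.3.3, numpy 2.4.6 and matplotlib 3.10.9 made the tables and figures.

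The members and lists were chosen with earlier results of these data known. All members were named, as were the ligands and receptors, Stat2, Irf1, Irf3, Jak1 and Tyk2. Up to 6 called genes per direction with the largest change of each further list were also named. The pathway list held kinase, transcription factor, sensor, adaptor and inhibitor genes, of which 1 is not reported here, and Ifit1bl1 and Ifit3b of the further list were matched by older names, while 3 of its symbols (Gbp10, Gbp2b and Oas1b) were not used here.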

Additional observations from a re-analysis of the deposited data

How the results depend on the processing

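Of 12 called members, 8 kept their call under every alternative in which they were tested, 10 under the 3 scalings and 8 with each of the 4 libraries left out in turn, and no listed gene changed direction with a call. The exceptions were Irf7, Irf9, Gbp7 and Parp14. Of 293 values of the 20 tested members over the alternatives, 14 lost and 6 gained a call. Of 1175 values of 79 other listed genes, 85 lost and 38 gained one. Testing only genes at 1 RPKM or more in all 4 libraries left 3 members higher in SI-ILC2s, because Ifit1, Oas1a and Rsad2 were not tested there. With 1 library left out, the lone library of a tissue is assumed to vary like the others. Members higher in SI-ILC2s then numbered 5 to 6 and those higher in WAT-ILC2s 3 to 6. For pathway genes the ranges were 2 to 5 and 8 to 13, and for the other interferon-induced genes 4 to 7 and 11 to 19. Pathway genes higher in SI-ILC2s numbered 3 after rescaling to equal sums, and those higher in WAT-ILC2s numbered 9 without a filter, which put 21851 genes in the adjustment. With the replicate number as a block, 6 and 9 members, 8 and 17 pathway genes and 8 and 23 other induced genes were called. The deviations of same-numbered libraries from their tissue means correlated at 0.57 over 8230 genes, but the labels do not say that a number marks shared mice or a shared day, and there are only 2 pairs. For members at few reads, such as Ifit3 with an estimated 4 to 42 reads per library, a difference between tissues within the spread of replicates was not detectable at this depth.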
